A study of Mus musculus with 9 samples.

Results

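miR-221 and miR-222 are a pair of miRNAs made from neighbouring hairpins on the mouse X chromosome, and their levels were followed here in small extracellular vesicles (smEVs). The members were the rows mmu-miR-221 and mmu-miR-222, 2 of the 1164 miRNAs in the count table, chosen by name. The smEVs were released by immortalised mouse kidney medullary (KM) cell lines, an epithelial model of the renal medulla that forms primary cilia. Small RNA was sequenced from 9 smEV pellets, 3 from each of 3 cell lines. One line was Bbs4-/-, which lacks a subunit of the BBSome, a protein complex that moves cargo in and out of the cilium. Another was Bbs6-/-, which lacks a chaperonin-like protein needed to assemble the BBSome. The third was wild-type (WT). All 3 lines had grown to confluency and then spent 24 h without serum, which halts the cell cycle and induces cilia. Each genotype is 1 cell line, so genotype and cell line cannot be told apart. The p-values measure the spread between pellets of a line. The Bbs4 and Bbs6 transcripts are not measured in a table of miRNAs and gave no check of the genotypes. Libraries are named by their number in the count table, where Bbs4-/- has 1, 2 and 3, Bbs6-/- has 2, 3 and 4, and WT has 1, 3 and 4.

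A miRNA is cut from a hairpin precursor as a short strand that guides silencing complexes to messenger RNAs, mostly through its seed, bases 2 to 8. miR-221 and miR-222 arise from a shared primary transcript and carry the same seed on their 3p arms. They are known as growth-promoting miRNAs. Their well-studied targets include the cell-cycle inhibitors p27 (Cdkn1b) and p57 (Cdkn1c) and the receptor Kit. smEVs can carry such miRNAs from the releasing cell to other cells.

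The mature strands are shown because the shared seed makes the pair a family, while the bases after it are what tells their reads apart. In RefSeq (GRCm38.p6) miR-221-3p lies on the minus strand at chrX:19146307-19146329, and miR-222-3p at chrX:19146901-19146923. The other arm of the first hairpin, miR-221-5p, lies at chrX:19146344-19146369. Capitals mark the seed.
miR-221-3p: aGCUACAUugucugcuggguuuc
miR-222-3p: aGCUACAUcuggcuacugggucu
miR-221-5p: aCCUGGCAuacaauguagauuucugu
The 3p arms are 23 bases each. Their first 8 bases are identical, and 11 of the 23 positions match when the arms are set side by side without gaps, so 12 positions separate them. The 5p arm of miR-221 has a different seed, CCUGGCA. The rows of the table name no arm, and only the larger count was kept where a miRNA had several entries, so the arm behind each count is not known. Besides the members, 1 miRNA with a RefSeq sequence holds the seed GCUACAU, miR-1928, and it had 0 counts in all 9 libraries.

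The hairpins show how close the sources lie. Mir221 spans chrX:19146294-19146388 (95 bases) and Mir222 spans chrX:19146893-19146971 (79 bases), both on the minus strand with 504 bases between them. Capitals mark the mature arms listed above.
Mir221: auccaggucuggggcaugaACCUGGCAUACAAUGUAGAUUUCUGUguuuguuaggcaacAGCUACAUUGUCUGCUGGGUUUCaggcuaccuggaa
Mir222: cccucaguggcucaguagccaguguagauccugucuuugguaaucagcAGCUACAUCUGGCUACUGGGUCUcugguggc
No other gene of the annotation overlaps the interval from one hairpin to the other, which makes it intergenic. The nearest non-coding gene, Gm14636, lies 10010 bases away on the same strand. The nearest protein-coding gene, Tex13c3, is 332449 bases away.

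The WT libraries, with 64118 to 130905 miRNA counts, were all less deep than those of Bbs4-/- (176935 to 457163) and Bbs6-/- (192654 to 423784). A level of 3 counts, the limit that a count of 0 allows, was 6.99 to 36.5 CPM (counts scaled to a common library size) across libraries, and both members were far above it. CPM values were scaled by TMM, a method that centres the bulk of the miRNAs between libraries. Among the Bbs6-/- libraries, number 2 stood apart. It held 32 counts of the epithelial miR-200c, against 1069 and 1542 in the others and 1 or 2 in WT, and 3 counts of miR-672, against 176 and 219 in the others and 6 to 15 in WT. The comparisons of the pair that include Bbs6-/- are therefore also given without it. Summed epithelial markers (5 miRNAs of the miR-200 family) reached 9996 to 13309 CPM in WT, below 16973 to 18931 CPM in Bbs4-/- and 16556 to 21416 CPM in Bbs6-/-, with miR-141 at 0 in WT. The summed mesenchymal markers (5 miRNAs, miR-145a and miR-214 at 0 in every library) stayed at or below 291 CPM, the endothelial marker at or below 136 CPM and the 6 blood markers at or below 170 CPM. Liver, neuron and muscle markers reached at most 85.1, 467 and 2380 CPM. The part of these differences in the results for the pair was not tested.

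Both members were abundant in smEVs of all 3 lines, and a different member passed the test against WT in each mutant. miR-221 fell in Bbs4-/- smEVs to 61.0% of the WT level, by the fit to the 6 libraries of that comparison. miR-222 fell in Bbs6-/- smEVs to 57.1% of the WT level, by the same kind of fit. In each mutant the other member was lower by a smaller amount that did not pass. With all libraries, neither member passed in the direct comparison of the mutants. With levels scaled to total counts alone, both members passed against WT in both mutants. The balance of the pair differed across the 3 genotypes, with more miR-222 than miR-221 in all 3 Bbs4-/- libraries and less in 2 of the 3 Bbs6-/- libraries. That call was lost in 7 of 11 alternatives, and no pair of genotypes passed on its own.

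miR-221 was counted 958, 978 and 2032 times in Bbs4-/- libraries 1, 2 and 3. In Bbs6-/- libraries 2, 3 and 4 its counts were 958, 1711 and 2166. In WT libraries 1, 3 and 4 they were 591, 963 and 1121. These counts placed miR-221 between rank 27 and rank 38 of all miRNAs in each library. Its level in WT was 7187, 8578 and 7249 CPM, a mean of 7671 ± 786 CPM (SD, n = 3). In Bbs4-/- it was 6058, 4382 and 4732 CPM, a mean of 5057 ± 884 CPM (SD, n = 3). In Bbs6-/- it was 5259, 5849 and 6202 CPM, a mean of 5770 ± 476 CPM (SD, n = 3). All 6 mutant libraries lay below the lowest WT library, and the mutants overlapped each other.

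miR-222 was counted 1328, 1320 and 2346 times in Bbs4-/-, 976, 1134 and 1523 times in Bbs6-/-, and 709, 950 and 1069 times in WT, with the libraries in the same order. It ranked between 24 and 43. Its level in WT was 8622, 8463 and 6912 CPM, a mean of 7999 ± 944 CPM (SD, n = 3). In Bbs4-/- it was 8398, 5914 and 5463 CPM, a mean of 6592 ± 1580 CPM (SD, n = 3). In Bbs6-/- it was 5358, 3877 and 4361 CPM, a mean of 4532 ± 755 CPM (SD, n = 3). The Bbs6-/- libraries were the lowest 3 of the 9. Bbs4-/- library 1 lay among the WT libraries, while the other Bbs4-/- libraries lay between WT and Bbs6-/-.

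**Figure D1:**
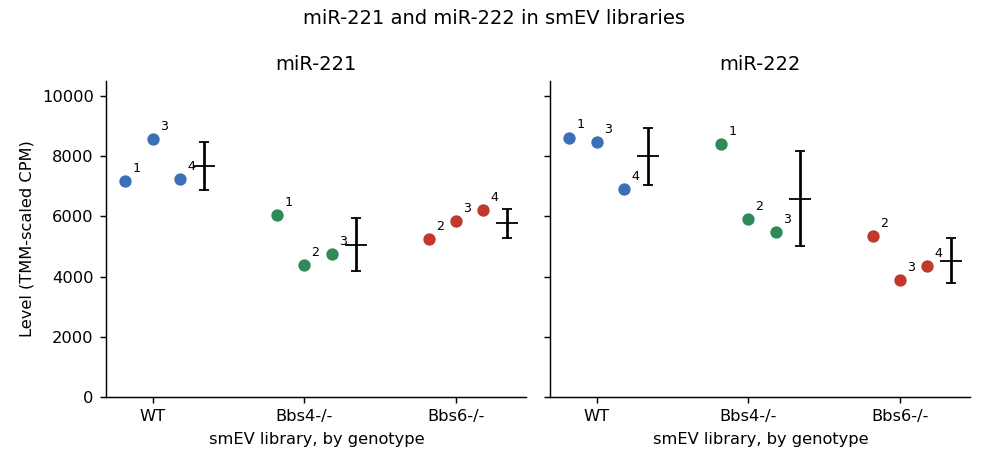
Level of miR-221 (left) and miR-222 (right) in each smEV library, in TMM-scaled CPM on a linear axis from 0. Points are libraries with their number in the table, and black bars give the mean ± SD of the 3 libraries of a genotype. All mutant points for miR-221 lie below the lowest WT point (7187 CPM), and for miR-222 the Bbs6-/- points (3877 to 5358 CPM) lie below all others.

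The order of the genotypes thus differed between the members. For miR-221 it was WT, Bbs6-/-, Bbs4-/-, and the mutant means were separated by less than the spread of the Bbs4-/- libraries. For miR-222 it was WT, Bbs4-/-, Bbs6-/-, and the WT and Bbs4-/- ranges overlapped.

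As a share of all counts in a library, which uses no scaling across miRNAs, miR-221 made up 0.922%, 0.907% and 0.856% in WT libraries 1, 3 and 4. It made up 0.541%, 0.459% and 0.444% in Bbs4-/- and 0.497%, 0.532% and 0.511% in Bbs6-/-. The 95% Wilson intervals, which cover counting error only, ran from 0.808% upwards in WT and up to 0.577% in the mutants. For miR-222 the shares were 1.11%, 0.894% and 0.817% in WT, 0.751%, 0.619% and 0.513% in Bbs4-/-, and 0.507%, 0.352% and 0.359% in Bbs6-/-. By this measure both members were lower in every mutant library than in every WT library. The share of all miRNAs that separated in this way is not given here.

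TMM levels and shares of all counts differed in where they set the bulk of the miRNAs. On total counts the median log2 change of all miRNAs tested was -0.20 in Bbs4-/- and -0.44 in Bbs6-/-, against -0.02 and -0.01 with TMM. Measured from that median, the change of miR-221 in Bbs4-/- was -0.70 with TMM and -0.70 on total counts. The change of miR-222 in Bbs6-/-, measured the same way, was -0.80 with TMM and -0.77 on total counts.

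Each mutant was compared with WT to ask whether the vesicle cargo of a cilia mutant differs from that of the control. The test was edgeR's quasi-likelihood test on the counts, fitted across all miRNAs, and a miRNA passed at an adjusted p under 0.1. In Bbs4-/- smEVs miR-221 fell, with a log2 fold change of -0.71 (SE 0.20, edgeR adjusted p = 0.0312, n = 3 per genotype), and no Bbs4-/- library reached the WT range. miR-222 had a log2 fold change of -0.39 (SE 0.21) and did not pass (edgeR adjusted p = 0.280), and its ranges overlapped. Thus 1 of the 2 members was lower by the test, where 6.49% of the 308 miRNAs tested were lower and 8.77% higher. The median log2 fold change over all miRNAs tested was -0.02. miR-221 did not pass without Bbs4-/- library 2 (edgeR adjusted p = 0.111) or library 3 (edgeR adjusted p = 0.135). Its log2 fold change stayed between -0.73 and -0.61 with any 1 library left out. In a fit of all 9 libraries, the set that scaled the CPM values, it was -0.60 and passed (edgeR adjusted p = 0.0681).

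In Bbs6-/- smEVs miR-222 fell, with a log2 fold change of -0.81 (SE 0.19, edgeR adjusted p = 0.0374, n = 3 per genotype), and the groups did not overlap. miR-221 had a log2 fold change of -0.38 (SE 0.18) and did not pass (edgeR adjusted p = 0.249). Its ranges did not overlap either, and the share of the 298 miRNAs tested without overlap is not given here. Again 1 of the 2 members was lower, where 5.37% of the 298 miRNAs tested were lower and 9.73% higher. The median over all miRNAs tested was -0.01. Without Bbs6-/- library 2, the log2 fold change of miR-222 was -0.89 (edgeR adjusted p = 0.00376) and that of miR-221 was -0.27 (edgeR adjusted p = 0.296). miR-222 did not pass without Bbs6-/- library 3 (edgeR adjusted p = 0.146) or WT library 1 (edgeR adjusted p = 0.143). On total counts miR-221 also passed in Bbs6-/- (log2 fold change -0.80, edgeR adjusted p = 0.0164) and miR-222 also passed in Bbs4-/- (log2 fold change -0.58, edgeR adjusted p = 0.0738).

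The comparisons with WT share the WT libraries, so the mutants were also compared directly. miR-221 differed between Bbs4-/- and Bbs6-/- by -0.19 on the log2 scale (SE 0.19, edgeR adjusted p = 0.733). This difference was -0.36 without Bbs6-/- library 2 (edgeR adjusted p = 0.209), and -0.10 without Bbs4-/- library 2 and -0.34 without Bbs4-/- library 1 (edgeR adjusted p = 0.916 and 0.625). It was -0.31 without Bbs6-/- library 3 and -0.33 without WT library 1 (edgeR adjusted p = 0.573 and 0.390). miR-222 was higher in all 3 Bbs4-/- libraries than in any Bbs6-/- library, with a log2 difference of 0.54 (SE 0.22), which did not pass across all miRNAs (edgeR adjusted p = 0.225). Here 3.88% of the 309 miRNAs tested were lower in Bbs4-/- and 4.21% higher, with a median of 0.04. Without Bbs6-/- library 2 the log2 difference of miR-222 was 0.57 and passed (edgeR adjusted p = 0.0774). No log2 fold change of either member reached 2, the limit the study set beside its p threshold.

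**Figure D2:**
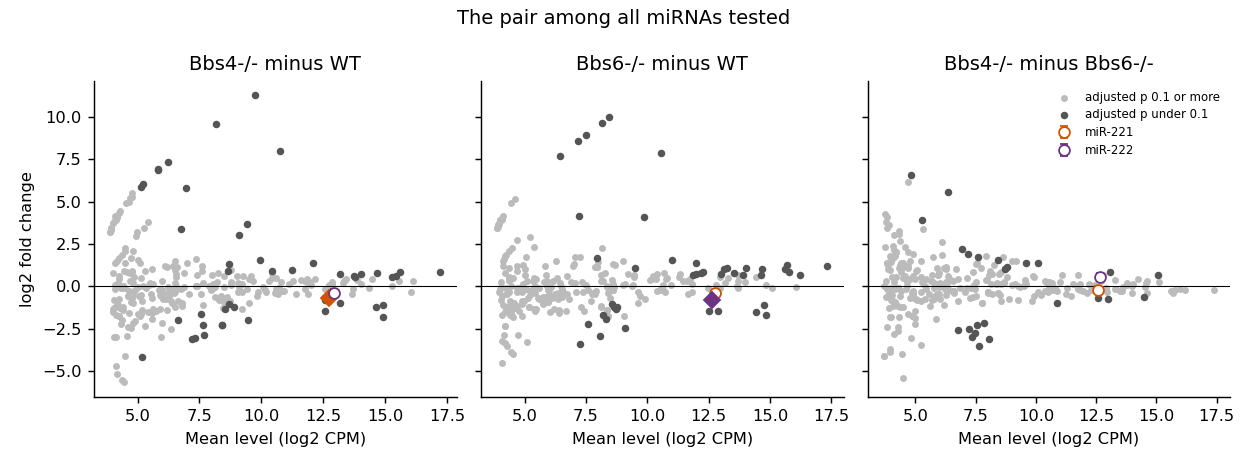
Log2 fold change against mean level (log2 CPM) of every miRNA tested, in 1 panel per comparison. Dark grey points passed at an adjusted p under 0.1, light grey points did not, and miR-221 (orange) and miR-222 (purple) carry their SE and are filled where they passed. Both members sit at the abundant end with small changes, miR-221 filled in Bbs4-/- (-0.71) and miR-222 filled in Bbs6-/- (-0.81).

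The balance between the members was examined within each library, where the library total and the scaling cancel. The log2 ratio of miR-222 to miR-221 counts was 0.47, 0.43 and 0.21 in Bbs4-/- libraries 1, 2 and 3, a mean of 0.37 ± 0.14 (SD, n = 3). In WT libraries 1, 3 and 4 it was 0.26, -0.02 and -0.07, a mean of 0.06 ± 0.18 (SD, n = 3). In Bbs6-/- libraries 2, 3 and 4 it was 0.03, -0.59 and -0.51, a mean of -0.36 ± 0.34 (SD, n = 3). miR-222 was thus the more abundant member in every Bbs4-/- library and in WT library 1. The members were nearly equal in WT libraries 3 and 4 and in Bbs6-/- library 2. miR-221 was the more abundant member in Bbs6-/- libraries 3 and 4. In each genotype the shallowest library, which also had the lowest number, had the highest log2 ratio. These were Bbs4-/- library 1 (176935 counts), WT library 1 (64118) and Bbs6-/- library 2 (192654). A relation of the ratio to depth or to library number was not tested.

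Put as a share, miR-222 made up 58.1% of the pair (95% Wilson interval 56.1% to 60.1%) in Bbs4-/- library 1. It made up 57.4% (55.4% to 59.4%) in library 2 and 53.6% (52.1% to 55.1%) in library 3. These 3 shares lay above every Bbs6-/- share. In Bbs6-/- library 2 miR-222 made up 50.5% (48.2% to 52.7%), in library 3 39.9% (38.1% to 41.7%) and in library 4 41.3% (39.7% to 42.9%). In WT it made up 54.5% (51.8% to 57.2%), 49.7% (47.4% to 51.9%) and 48.8% (46.7% to 50.9%). WT library 1 lay within the Bbs4-/- range, and Bbs6-/- library 2 within the WT range.

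The log2 ratio differed across the 3 genotypes by an exact permutation test over the 280 ways to divide 9 libraries into 3 groups of 3 (F = 7.27, exact one-sided p = 0.0286, smallest possible p 0.00357). Counting error gave each log2 ratio an SE of 0.0437 to 0.0804, below the spread of libraries within a genotype. Taken in pairs, the mean log2 ratio was 0.31 higher in Bbs4-/- than in WT (exact two-sided permutation p = 0.2). It was lower by 0.42 in Bbs6-/- than in WT, at -0.36 against 0.06 (exact permutation p = 0.3). It was 0.73 higher in Bbs4-/- than in Bbs6-/- (exact permutation p = 0.1). With 3 libraries against 3, the smallest p an exact test can give is 0.1, and all 3 values were 0.3 after Benjamini-Hochberg adjustment over the 3 pairs. Without Bbs6-/- library 2, the genotypes differed with F = 23.7 (exact permutation p = 0.00714). The mean difference was then -0.61 for Bbs6-/- minus WT and 0.92 for Bbs4-/- minus Bbs6-/- (exact permutation p = 0.1 for both, the smallest that 2 libraries against 3 allow). Without any 1 Bbs4-/- library, Bbs6-/- library 3, or WT library 3 or 4, the exact permutation p was 0.05 to 0.0964. With a rank-based statistic over all 9 libraries the exact permutation p was 0.0857.

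**Figure D3:**
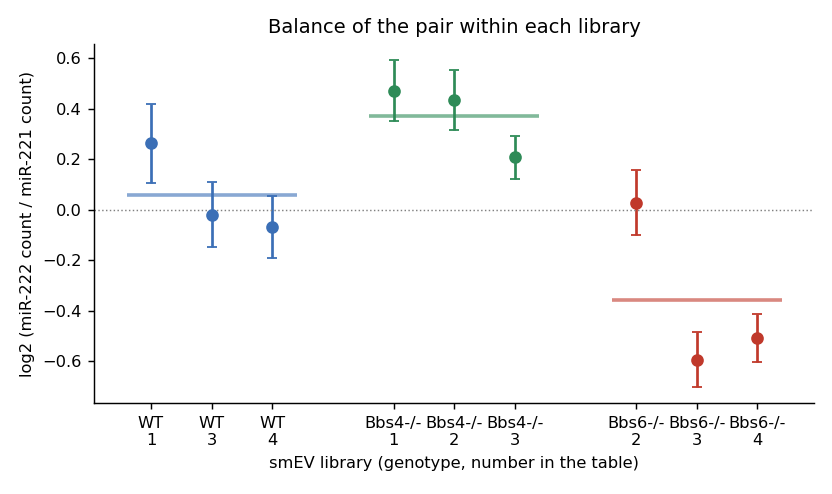
Log2 ratio of miR-222 to miR-221 counts in each smEV library, named by genotype and number. Points carry 95% Wilson intervals for counting error, thick lines are the means of the 3 libraries of a genotype (0.06 in WT, 0.37 in Bbs4-/- and -0.36 in Bbs6-/-), and the dotted line marks equal counts. The Bbs4-/- points all lie above the Bbs6-/- points, and Bbs6-/- library 2 lies near equal counts.

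The members were summed to follow the pair as a whole. The sum was 14161 to 17041 CPM in WT (mean 15670 ± 1445, SD, n = 3), 10196 to 14456 CPM in Bbs4-/- (11649 ± 2431) and 9726 to 10616 CPM in Bbs6-/- (10302 ± 499). Bbs4-/- library 1, at 14456 CPM, was the only mutant library to reach the WT range. The 3 genotypes differed with F = 8.32 on the log2 sum, which missed the 0.05 threshold (exact permutation p = 0.0571), as it did without Bbs6-/- library 2 (F = 6.48, exact permutation p = 0.0714). It passed without any 1 Bbs4-/- library (exact permutation p = 0.0357 to 0.0429), with F = 37.1 without library 1. On total counts the pair made up 1.67% to 2.03% of a WT library, 0.958% to 1.29% of a Bbs4-/- library and 0.870% to 1.00% of a Bbs6-/- library, without overlap between WT and the mutants (F = 29.98, exact permutation p = 0.00714). With upper-quartile scaling the exact permutation p was 0.0357.

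A correlation of the members over the 9 libraries was not past the threshold. Pearson's r of their log2 CPM was 0.51 (exact permutation p = 0.160) and Spearman's rho was 0.52 (exact permutation p = 0.162), and both were 0.162 after adjustment over these 2 measures. Without WT library 3 and Bbs4-/- library 2, the libraries farthest from the median of miR-221, r was 0.46. Within a genotype 3 libraries were too few for a correlation. The points share each library's depth and scaling.

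Among the 112 other miRNAs that reached 10 counts in each of the 9 libraries, miR-222 ranked 16th by likeness to miR-221, and miR-221 ranked 26th by likeness to miR-222. The miRNAs most like miR-221 by Pearson's r over the 9 libraries were miR-224 (r = 0.88), miR-6538 (0.80), miR-351 (0.79), miR-25 (0.75) and miR-532 (0.75). Those most like miR-222 were miR-501 (r = 0.93), miR-6239 (0.89), miR-1195 (0.87), miR-5126 (0.87) and miR-532 (0.78). miR-224, miR-351, miR-501 and miR-532 are also encoded on the X chromosome, which held 13 of the miRNAs compared. miR-532 was on both lists, miR-224 and miR-351 on that of miR-221 alone, and miR-501 on that of miR-222 alone. These correlations describe the 9 libraries and carry no test.

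The X-chromosome miRNAs as a group were then counted. The table holds 83 besides the members, and 26 had enough counts to be tested. In Bbs4-/- 5 of the 26 were lower and 2 higher, beside 6.49% lower and 8.77% higher over all miRNAs, with a median log2 fold change of -0.87 against -0.02. miR-224, hosted in an intron of the GABA receptor gene Gabre, was counted 40, 59 and 142 times in Bbs4-/- and 58, 156 and 153 times in WT. Its log2 fold change was -1.97 (SE 0.32, edgeR adjusted p = 0.000858). miR-676 was also lower (log2 fold change -3.11, edgeR adjusted p = 0.000858), while miR-672 was higher (3.69, edgeR adjusted p = 0.000112) and miR-504 was higher with 12 to 29 counts against none in WT. With no WT count miR-504 could pass only as higher.

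In Bbs6-/- 5 of the 26 were lower and 0 higher, beside 5.37% lower and 9.73% higher over all miRNAs, with a median of -0.92 against -0.01. On total counts 7 of 26 were lower and 2 higher in Bbs4-/-, beside 29 lower and 22 higher of all 308 tested. In Bbs6-/- 9 of 26 were lower and 0 higher on total counts, beside 27 lower and 11 higher of all 298. Without Bbs6-/- library 2, 7 of 26 were lower in Bbs6-/- and 1 higher, beside 25 lower and 42 higher of all 296. With TMM and all libraries, miR-361 fell in Bbs6-/- by 1.68 on the log2 scale (edgeR adjusted p = 0.0391). In the same fit miR-501 fell by 1.22, miR-532 by 1.25 and miR-351 by 1.07 (edgeR adjusted p = 0.0605, 0.0605 and 0.0614). miR-501, the miRNA most like miR-222, was counted 50, 57 and 76 times in Bbs6-/- and 53, 66 and 59 times in WT. Its log2 fold change in Bbs4-/- was -0.32 (SE 0.31, edgeR adjusted p = 0.535). The direct comparison of the mutants had 1 of 26 higher in Bbs4-/-, miR-501 (1.01, edgeR adjusted p = 0.0998), and 1 lower, miR-676 (-2.50, edgeR adjusted p = 0.0111). Over all miRNAs 4.21% were higher and 3.88% lower, and the median of the 26 was 0.10 against 0.04.

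The pair was also set beside other miRNAs known for roles in growth. Of 13 growth-promoting miRNAs, drawn from the miR-17 family clusters, miR-21a and a few others, 1 rose and 1 fell in Bbs4-/-, near the background of 8.77% higher and 6.49% lower over all miRNAs. Their median log2 fold change was 0.13, against -0.02. miR-21a, the most abundant smEV miRNA and a known growth-promoting miRNA, rose (0.84, SE 0.19, edgeR adjusted p = 0.00964). miR-25, of the miR-106b cluster, fell (-0.80, SE 0.22, edgeR adjusted p = 0.0239). In Bbs6-/- 2 rose and 0 fell, beside a background of 9.73% higher and 5.37% lower, with a median of 0.18 against -0.01. These were miR-21a (1.18, edgeR adjusted p = 0.00201) and miR-93, also of the miR-106b cluster (0.73, edgeR adjusted p = 0.0300). In the direct comparison miR-25 alone passed, lower in Bbs4-/- (-0.72, edgeR adjusted p = 0.0623), beside 3.88% lower and 4.21% higher over all miRNAs. The median of the list was -0.21 against 0.04. The median of the list minus that of all miRNAs was taken under 4 scalings (TMM, total counts, upper quartile and DESeq2 size factors). It was 0.15 to 0.16 in Bbs4-/- and 0.18 to 0.23 in Bbs6-/-. A scaling moves all miRNAs of a comparison by nearly the same amount, so this difference could change only little. The list median itself was below 0 on total counts in both mutants (-0.04 and -0.23) and with upper-quartile scaling in Bbs4-/- (-0.05), where the median of all miRNAs was lower too (-0.20, -0.44 and -0.20).

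Of 24 growth-restraining miRNAs, which include the let-7 family and the p53-induced miR-34 family, 20 were tested. In Bbs4-/- 6 rose and 0 fell, beside 8.77% higher and 6.49% lower over all miRNAs (median 0.33 against -0.02), among them let-7i (0.76, edgeR adjusted p = 0.0312) and let-7e (0.74, edgeR adjusted p = 0.0448). In Bbs6-/- 10 rose and 0 fell, beside 9.73% higher and 5.37% lower (median 0.68 against -0.01), among them let-7a (1.01, edgeR adjusted p = 0.0374) and miR-26a (0.80, edgeR adjusted p = 0.0417). miR-34b and miR-34c passed in both mutants from no count in any WT library, with 4 to 19 counts per Bbs4-/- library. With no WT count they could pass only as higher, and they are among the 6 and the 10 that rose. Between the mutants 1 was higher and 3 lower in Bbs4-/-, beside 4.21% higher and 3.88% lower over all miRNAs. Their median was -0.25 against 0.04. The let-7 members differ by few bases, so the split of reads among them is uncertain. On total counts the median of all miRNAs was -0.20 in Bbs4-/- and -0.44 in Bbs6-/-. In that setting 4 of the list rose and 2 fell in Bbs4-/-, beside 22 higher and 29 lower of all 308 tested. In Bbs6-/- 2 rose and 1 fell, beside 11 higher and 27 lower of all 298. With upper-quartile scaling 2 rose and 2 fell in Bbs4-/-, beside 19 higher and 32 lower of all 308. In Bbs6-/- 5 rose and 0 fell with that scaling, beside 18 higher and 19 lower of all 298. The median of the list minus that of all miRNAs was 0.35 in Bbs4-/- and 0.67 to 0.71 in Bbs6-/- over the 4 scalings. Scaling could again change this difference only little. Without Bbs6-/- library 2, 12 rose and 0 fell in Bbs6-/-, beside 42 higher and 25 lower of all 296 tested.

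Neighbouring hairpins of other loci gave a scale for the balance of the pair. Of 25 other pairs listed, 11 had at least 10 counts of both members in every library. The mean log2 ratio of miR-222 to miR-221 spanned 0.73 between the highest and the lowest genotype, against a median of 0.42 over the 11 pairs. It was exceeded by 3 of them, with miR-374b/miR-421 the widest at 1.83, although that pair had as few as 14 counts of a member in a library. miR-93/miR-25 spanned 1.06 and miR-99b/miR-125a 0.83. Libraries within a genotype varied with a pooled SD of 0.23 in the log2 ratio of the members, against a median of 0.27 over the 11 pairs.

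Among the 3 pairs closest by median CPM over both members, miR-30b/miR-30d, of a family abundant in kidney, spanned 0.16. miR-200a/miR-200b, of the epithelial miR-200 family, spanned 0.30, and miR-23b/miR-27b spanned 0.21. That median joined unlike levels. miR-30b was at most 789 CPM and miR-30d at least 10359 CPM, and miR-200a was at most 3416 CPM and miR-200b at least 7406 CPM. Both members of miR-23b/miR-27b lay between 2165 and 9460 CPM. Those of miR-93/miR-25, which spanned 1.06, lay between 3705 and 10507 CPM. The narrowest was miR-23a/miR-27a at 0.15. The balance of miR-221 and miR-222 thus spanned more than that of 8 of the 11 pairs, and the pairs were not tested against each other. Without Bbs6-/- library 2 it spanned 0.92, again exceeded by 3 of the 11 pairs, whose median was 0.45.

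**Figure D4:**
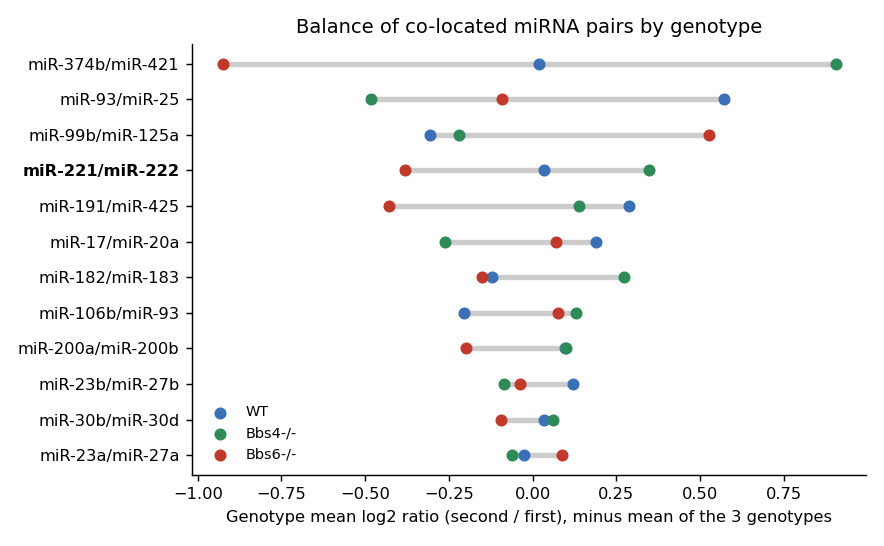
Mean log2 ratio (second to first member) of each co-located miRNA pair in WT, Bbs4-/- and Bbs6-/- smEVs, minus the mean of the 3 genotypes of that pair. Points are means of 3 libraries, and grey bars span the highest to the lowest genotype. miR-221/miR-222 (bold) is the fourth widest of the 12 pairs, at 0.73, with WT between the mutants.

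**Figure D5:**
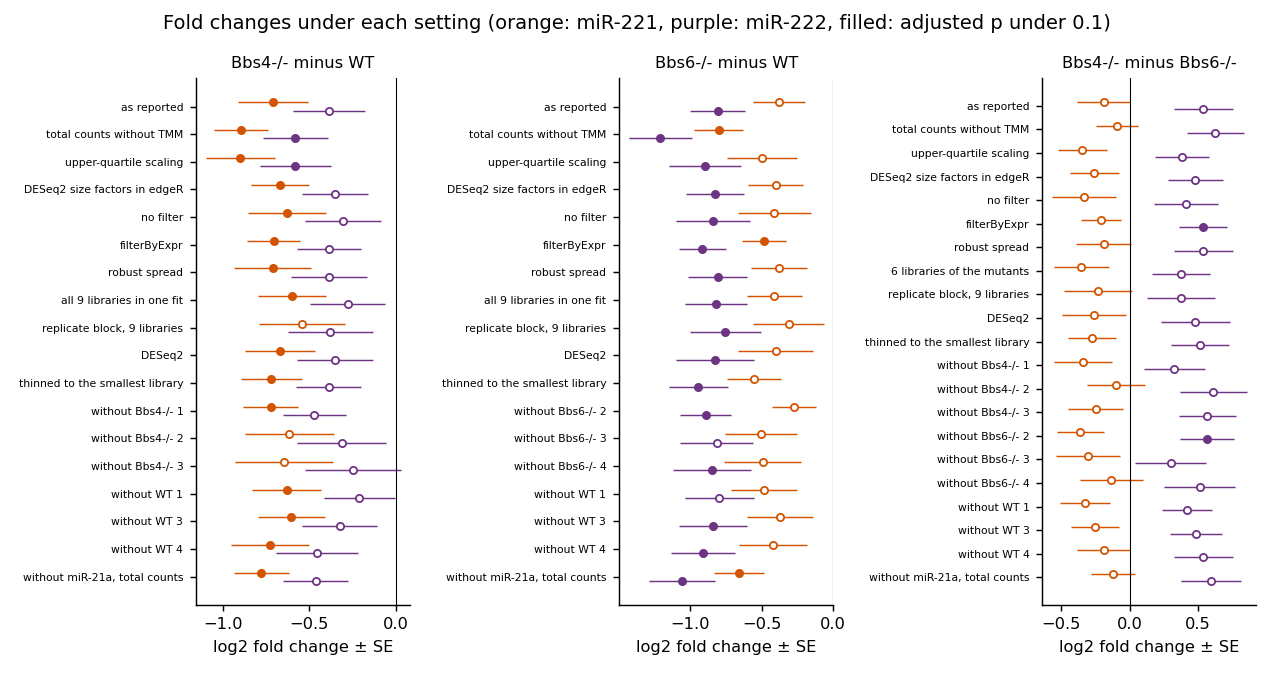
Log2 fold changes ± SE of miR-221 (orange) and miR-222 (purple) in each comparison, as reported and under every other setting tried. Filled points had an adjusted p under 0.1. Both members stay below 0 in both mutants under every setting, miR-222 stays above 0 in Bbs4-/- minus Bbs6-/-, and which points are filled changes with scaling and with the library left out.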

How the data were processed

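Libraries were made from smEV RNA with the NEXTflex Small RNA-Seq Kit V3, and reads were trimmed (cutadapt 1.9, per the submitters' processing notes), collapsed by unique molecular identifier and assigned to miRNAs with miRDeep2. The authors deposited whole-number counts per miRNA, not normalised, with the largest count kept for a miRNA of several entries. No column was left out (0), and all 9 were assigned to genotypes by name. The column numbers of Bbs6-/- and WT differ from the labels, which number 1 to 3, so numbers served as names and, in an alternative, as a block. Samples sharing a number did not deviate together in every pair (r = -0.13 to 0.37).

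Counts were fitted in R 4.3.3 with edgeR 4.0.16 (TMM, quasi-likelihood test, Benjamini-Hochberg adjustment) over rows with at least 6 counts in the 6 libraries of a comparison with WT, or at least 9 counts in all 9 libraries for the mutants. DESeq2 1.42.0 was an alternative. CPM values used TMM factors from all 9 libraries (0.824 to 1.28), log2 CPM a prior count of 2, and fold changes came from the fit of each comparison. Ratios and sums were tested by exact permutation over libraries (Python 3.11.15, scipy 1.17.1). Scripts were tested on simulated data. RefSeq gave a mature sequence for 1026 rows, and hairpins and genes came from annotations of GRCm38.

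The members and lists were chosen with earlier results of these data known. Named besides the members were the 5 miRNAs most like each, those sharing a seed, up to 4 passing miRNAs per list and comparison by smallest p, and, of the co-located pairs, the 3 closest in level, the widest and the narrowest. miR-93/miR-25 and miR-99b/miR-125a, and miR-200c and miR-672 as measures of Bbs6-/- library 2, were added after their values were seen, as was the change of miR-501 in Bbs4-/-. Alternatives covered scaling, filters, the spread estimate, thinning to 64118 counts, the samples in the fit, and each library left out. The span of the co-located pairs without Bbs6-/- library 2 was added after the data were seen.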

Additional observations from a re-analysis of the deposited data

Results flagged for a closer look

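The balance of the pair differed between the cell lines under the same measure. The log2 ratio of miR-222 to miR-221 had a mean of 0.37 in Bbs4-/-, 0.06 in WT and -0.36 in Bbs6-/- smEVs, and the 3 genotypes differed by an exact permutation test (p = 0.0286, n = 3 each). All 3 Bbs4-/- libraries lay above all 3 Bbs6-/- libraries. In each genotype the shallowest library had the highest log2 ratio, and a relation of the ratio to depth was not tested. The call was lost with a rank-based statistic (exact permutation p = 0.0857). It was also lost when any 1 Bbs4-/- library, Bbs6-/- library 3, or WT library 3 or 4 was left out (exact permutation p = 0.05 to 0.0964). No pair of genotypes passed on its own, with an adjusted exact permutation p of 0.3 for all 3 pairs.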

How the results depend on the processing

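No result for the members reversed under any of the alternatives run, and both members kept a negative log2 fold change in both mutants. Other results did change direction on total counts. The median of the growth-promoting list went from 0.13 to -0.04 in Bbs4-/- and from 0.18 to -0.23 in Bbs6-/-. That median minus the median of all miRNAs was 0.16 and 0.20 on total counts, a difference that scaling could change only little. More miRNAs passed as lower than as higher in both mutants on total counts, the opposite of TMM. For miR-222 in Bbs4-/- the change passed on total counts (-0.58, edgeR adjusted p = 0.0738) and with upper-quartile scaling (-0.58, 0.0797), within a range of adjusted p from 0.0738 to 0.620. For miR-221 in Bbs6-/- it passed on total counts (-0.80), under edgeR's own expression filter (-0.48, adjusted p = 0.0755) and on total counts without miR-21a, an alternative chosen after seeing the data (-0.66, 0.0437), within a range of 0.0164 to 0.572. miR-222 between the mutants passed under the expression filter (0.54, edgeR adjusted p = 0.0964). With the column number as a replicate block, miR-221 in Bbs4-/- did not pass (-0.54, edgeR adjusted p = 0.138), and the block changed no other call of the members. Whether these numbers pair the samples is not known, because correlations were taken only between samples sharing a number (r = -0.13 to 0.37). With the block 60 miRNAs passed in Bbs4-/-, 59 in Bbs6-/- and 34 between the mutants. In the same 9 libraries without it 46, 54 and 25 passed. The cause of these changes was not tested.

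Leaving out 1 library at a time gave log2 fold changes of -0.73 to -0.61 for miR-221 and -0.47 to -0.21 for miR-222 in Bbs4-/-. In Bbs6-/- they were -0.51 to -0.27 for miR-221 and -0.91 to -0.80 for miR-222, and between the mutants -0.36 to -0.10 for miR-221 and 0.30 to 0.61 for miR-222. F for the ratio was 4.36 to 23.7, and for the sum 4.75 to 37.1. The number of miRNAs passing was 30 to 55 against 47 in Bbs4-/-, 14 to 67 against 45 in Bbs6-/-, and 13 to 42 against 25 between the mutants, with fewer libraries in each fit. A rank-based statistic for the ratio gave 5.07 (exact permutation p = 0.0857). For the sum, total counts gave F = 29.98 and upper-quartile scaling 31.1. On total counts the miRNAs passing were 22 higher and 29 lower in Bbs4-/- (27 and 20 with TMM), 11 and 27 in Bbs6-/- (29 and 16), and 18 and 9 between the mutants (13 and 12). With upper-quartile scaling they were 19 and 32 in Bbs4-/- and 18 and 19 in Bbs6-/-. Depth limits miRNAs near 36.5 CPM, the floor of the shallowest WT library, more than the members.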
